A study of Mus musculus with 40 samples.

Results

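The translation initiation and elongation factors described here were the protein-coding genes whose symbols begin with Eif1 to Eif6 or with Eef1 or Eef2, together with Pabpc1, Pabpc4 and Tpt1. The 4E-binding proteins and the eIF2 alpha kinases were kept apart and are given as neighbours of the pathway. Of 63 symbols that matched, 61 passed the level filter, 1 CPM (counts scaled to the library total) or more in 5 or more of 40 libraries, and were tested among 13543 of 22844 genes. The 2 that did not were Eif4e1b, with 91 counts over all libraries, and Eif2c5, with 5 counts. The choice of genes used symbols and the level filter and no comparison between groups, though it was made with earlier results of these data known. The libraries were poly(A) RNA from whole extensor digitorum longus (EDL), a fast hindlimb muscle, of mice at 3 and 9 months of age. TSCmKO mice lack Tsc1 in muscle fibers, which leaves mTORC1, the growth-controlling kinase complex that Tsc1 restrains, constantly active there. Control mice (CON) carried the floxed Tsc1 alleles (Tsc1fl/fl) without the knockout, and the strain of all mice was labelled Tsc1tm1Djk/J. Mice of each genotype and age received vehicle or the mTORC1 inhibitor rapamycin (RM) by intraperitoneal injection for 3 days, at 4 mg/kg as labelled (the study's text gives a higher daily dose for the 3-day treatment, so the dose cannot be stated with certainty). The 8 groups held 5 libraries each: 3mCON, 3mCON+RM, 3mTSCmKO, 3mTSCmKO+RM, 9mCON, 9mCON+RM, 9mTSCmKO and 9mTSCmKO+RM. The promoter that drives the recombinase was not given in the sources used here, and the deletion is confined by design to fibers while the RNA is of the whole muscle.

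Initiation factors bring the small ribosomal subunit to the start codon. The cap-binding eIF4E, the scaffold eIF4G and the helicase eIF4A form eIF4F, which eIF4B and eIF4H stimulate and which poly(A)-binding proteins link to the tail of the mRNA. The multi-subunit eIF3 joins the ribosomal subunit to eIF4F, eIF2 delivers the initiator tRNA, its exchange factor eIF2B recharges it with GTP, and eIF1, eIF1A, eIF5 and eIF5B govern start codon choice and subunit joining. During elongation eEF1A carries aminoacyl-tRNA to the ribosome, the eEF1B subunits recharge eEF1A, and eEF2 moves the ribosome along by a codon. Active mTORC1 favours the translation of mRNAs that begin with a 5′ terminal oligopyrimidine (TOP) stretch, a class that includes ribosomal proteins, elongation factors, eIF4B, poly(A)-binding protein 1 and Tpt1. That control acts on translation, whereas the present measurements are of mRNA levels.

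Because TOP mRNAs are defined by their first bases, the annotated starts of members are shown first. RefSeq promoters (build GRCm38.p6) were at hand for 49 of the 61 genes, as 300-base windows from 250 bases before to 50 bases after the annotated start. The lines give 30 bases from 5 before to 25 after the start, 5′ to 3′ on the gene's strand, with capitals for an unbroken run of at least 7 C or T bases that begins with C. The first 5 genes hold such a run and the last 3 do not. Counted from the annotated start, the run begins at base 16 in Eef2, 18 in Eef1a2 and 11 in Eif4b, not among the first bases. In Eef1a1 and Eif3f it begins at -5 and -4.
Eef2 (chr10:81176626-81176655, plus strand): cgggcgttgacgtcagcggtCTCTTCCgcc
Eef1a1 (chr9:78481700-78481729, minus strand): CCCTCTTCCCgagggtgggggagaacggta
Eef1a2 (chr2:181156991-181157020, minus strand): tctgcgttctcgctcactggttCTCTCCCT
Eif4b (chr15:102073768-102073797, plus strand): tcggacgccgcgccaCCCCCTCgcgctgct
Eif3f (chr7:108934410-108934439, plus strand): gCTCTCTCTCTTTCTCggcaagatggcttc
Eif1 (chr11:100319944-100319973, plus strand): cacaggggcggctatataagtgaatacagg
Pabpc4 (chr4:123282906-123282935, plus strand): gaaaagaaaagaagaggaaaaaaaaaagca
Tpt1 (chr14:75845251-75845280, plus strand): acgacagttccgggggagccgcggacggtg
Such a run was present in 14 of 63 member promoters (22.2%) and in 4036 of all 32851 promoters of that length (12.3%). Annotated starts need not be the base at which transcription begins, so a missing run says only that these letters were not in this window. Likewise, a run within the window does not by itself show a TOP start.

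A second motif was also counted, and most members did not hold it. CACGTG, the canonical E-box, which reads the same on both strands, was present in 15 of the 63 member promoters (23.8%), in 13 genes, against 7.15% of all promoters. The E-box of 4 members whose mRNA moved in different directions is shown, 1 copy each, with CACGTG in capitals.
Eef2 (chr10:81176576-81176605, plus strand): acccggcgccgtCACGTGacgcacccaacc
Eif4a1 (chr11:69672595-69672624, minus strand): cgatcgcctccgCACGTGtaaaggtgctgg
Eif4g1 (chr16:20672661-20672690, plus strand): ggcagtgggtgtCACGTGatggggcggagc
Eif5a2 (chr3:28781123-28781152, plus strand): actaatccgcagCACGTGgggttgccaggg
The motif began 43 bases before the annotated start of Eef2, 189 before that of Eif4a1, 54 before that of Eif4g1 and 142 before that of Eif5a2, and Eif4g1 and Eif5a2 each hold another copy that is not shown. The last motif counted, the C/EBP-ATF response element (TGATGNAA, both strands), was in 2 of 63 member promoters (3.17%) and in 3.97% of all promoters. These matches describe the letters only, since binding was not measured.

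Total counts ranged from 8883870 to 35224669 per library. The level filter used these totals, and the CPM values given from here on used totals adjusted by a scaling factor for each library (TMM). Tsc1 itself averaged 78.0 to 116 CPM in the 4 CON groups and 20.3 to 29.3 CPM in the 4 TSCmKO groups, and no TSCmKO library reached the lowest CON library. Markers of fast fibers made up most of the marker signal, and their summed level (8 of 8 genes tested) differed between the 9-month groups with treatment and with genotype, while at 3 months the vehicle groups of both genotypes overlapped, as did 3mCON and 3mCON+RM. Vehicle libraries at 9 months spanned 167100 to 183183 CPM in controls (9mCON) and 107000 to 124242 in 9mTSCmKO, and treated libraries 209201 to 219476 and 159414 to 198007. The 3-month vehicle libraries spanned 135832 to 178274 CPM in controls (3mCON) and 109571 to 193540 in 3mTSCmKO, and treated ones 173211 to 204479 and 179170 to 209350. Fibroblast markers (5 of 5) summed to 791 to 1523 CPM in 9mCON and 121 to 577 in 9mCON+RM, and all 5 fell in that comparison, as did 4 of 5 macrophage markers and 3 of 4 tendon markers. The part of these shifts in the results that follow was not tested. The labelled mean insert size spanned 175 to 239 nt in the younger and 223 to 308 nt in the older libraries, so age and insert size cannot be told apart by group alone. In whole muscle, fewer cells of a type and less RNA per cell also cannot be told apart.

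Rapamycin raised a broad set of these genes in both genotypes. In 9mCON+RM against 9mCON, 21 of 61 rose and 0 fell, where 5.03% of all genes tested rose and 6.82% fell (edgeR quasi-likelihood test, Benjamini-Hochberg adjusted p under 0.05 over all genes). In 3mCON+RM against 3mCON, 6 rose and 0 fell, against 0.362% and 0.318% of all genes, and the number called was 2 to 5 on leaving out any 1 library (2 without 3mCON replicate 5) and 13 (12 higher and 1 lower) when only these groups were fitted, a fit that called 2.79% of all genes where the other called 0.679%. In 9mTSCmKO+RM against 9mTSCmKO, 21 rose and 7 fell, against 15.8% and 16.8% of all genes. In 3mTSCmKO+RM against 3mTSCmKO, 20 rose and 7 fell, against 10.6% and 13% of all genes. In that comparison Cd68 (1.24) and Mrc1 (0.94) of 5 macrophage markers, Col1a1 (1.19) of 5 fibroblast markers and Scx (2.04) of 4 tendon markers were higher. Of these lists 0 markers were lower, whereas Mrc1 and Col1a1 fell with rapamycin in 9mCON (-1.58 and -2.02). The lymphocyte and neutrophil markers S100a9 (-3.52) and Cd79a (-2.20) were lower in 3mTSCmKO+RM than in 3mTSCmKO. The part of all these markers in the result was not tested. The median log2 fold change of the 61 genes was 0.27 in 9mCON and 0.13 in 3mCON, beside medians over all genes of -0.02 and -0.00. In TSCmKO it was 0.16 at 9 months and 0.17 at 3 months, beside -0.04 and 0.01.

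Most rises in CON were also called in TSCmKO. No member fell in CON, so no fall could be shared, and of all genes that fell in TSCmKO 318 of 2275 also fell in CON at 9 months and 35 of 1761 at 3 months, so nothing is read from the 7 members that fell at each age. Of the 21 genes that rose with RM in 9mCON, 19 (90.5%) also rose in 9mTSCmKO, which is likewise 90.5% of the 21 there, whereas for all genes 508 were shared, 74.6% of those that rose in 9mCON and 23.8% of those that rose in 9mTSCmKO. All 6 that rose in 3mCON were among the 20 that rose in 3mTSCmKO (30% of these), where over all genes 43 of the 49 that rose in 3mCON (87.8%) were among the 1435 that rose in 3mTSCmKO. In TSCmKO, 16 genes rose at both ages, 76.2% of the 9-month and 80% of the 3-month set, where all genes gave 43.9% and 65.3%. Of the 7 that fell at each age 3 fell at both, 42.9% of each set, where all genes gave 42.8% and 55.3%. None of these pairs of comparisons shares a library. Over the whole table, 38 genes rose in all 4 rapamycin comparisons, and 5 of them were members: Eef2, Eif1, Eif3e, Eif4b and Pabpc4. The 3mCON calls of Eif1, Eif3e and Pabpc4 were all lost on leaving out any of 6 of the 10 libraries, 3mCON replicates 1, 3 and 5 and 3mCON+RM replicates 1, 2 and 4, which leaves Eef2 and Eif4b. Fitted on only the groups compared, the members called at 9 months fell from 21 to 10 in CON and from 28 to 14 in TSCmKO, while the share of all genes called fell from 11.8% to 4.28% and from 32.6% to 18.5%. Among those described in detail, the calls of Eif5a2, Eif4e3, Eif2s2, Eif1a, Eif4g1 and Eif6 in TSCmKO and of Eef1a2 and Eif6 in CON were lost, with adjusted p of up to 0.189.

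Loss of Tsc1 moved members in both directions. In 9mTSCmKO against 9mCON, 10 rose and 11 fell, against 19.1% and 18.9% of all genes, so the share of members called was near the background. In 3mTSCmKO against 3mCON, 3 rose and 9 fell, against 11.4% and 8.32%. Of the genes that fell, 7 fell at both ages, 63.6% of the 9-month and 77.8% of the 3-month set, where over all genes 792 fell at both, of 2553 and 1127 (70.3% of the latter). Of those that rose, 2 did at both, Eif4a1 and Eif4e3, 20% and 66.7% of the sets, where all genes gave 41.1% and 68.5%, so the shares of the 3-month sets were near those of all genes. Markers of other cells moved in the 9-month comparison: 3 of 5 fibroblast, 3 of 4 tendon and 2 of 4 endothelial markers were lower, as was Adipoq of the adipocyte list (-1.84). Of 5 macrophage markers 1, Cd68, was higher at 3.48-fold, and the fibroblast sum was 283 to 873 CPM in 9mTSCmKO. At 3 months the lymphocyte and neutrophil markers Cd79a (5.06-fold) and S100a9 (19.5-fold) were higher in 3mTSCmKO than in 3mCON. The part of these markers in the results was not tested. Fitted on only the groups compared, the members called fell from 21 to 8 at 9 months and rose from 12 to 21 at 3 months, while the number of all genes called moved the same way, from 5133 to 2710 of 13543 and from 2676 to 3769. Among those described in detail, the 9-month calls of Eif4g2, Pabpc1, Eif4a2, Tpt1, Eif3d and Eif2s3y were lost, with adjusted p of up to 0.138. The genotype and rapamycin comparisons share vehicle libraries, so their values are given side by side and no relation between them is drawn.

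In levels per length, as summed TPM (counts scaled by transcript length and library total), the 61 genes together held 16688 ± 625 TPM (SD, n = 5) in 3mCON and 13572 ± 1004 in 3mTSCmKO, and with rapamycin 20195 ± 454 and 16860 ± 321. At 9 months they held 16525 ± 738 TPM in 9mCON and 14773 ± 1123 in 9mTSCmKO, and with rapamycin 21001 ± 2021 and 18317 ± 1167. In each genotype and age the lowest treated library lay above the highest vehicle library. Tpt1 was the largest single part in 3mCON at 4190 ± 300 TPM, followed by Eif1 at 1682 ± 140, Eef2 at 1247 ± 98.8 and Eef1a2 at 943 ± 40.8, and the lead of Tpt1 over Eif1 far exceeded the spread of either. Eef1a2, Eif4g2 at 910 ± 96.5 and Eef1a1 at 850 ± 82.3 lay within their spread of each other.

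**Figure D1:**
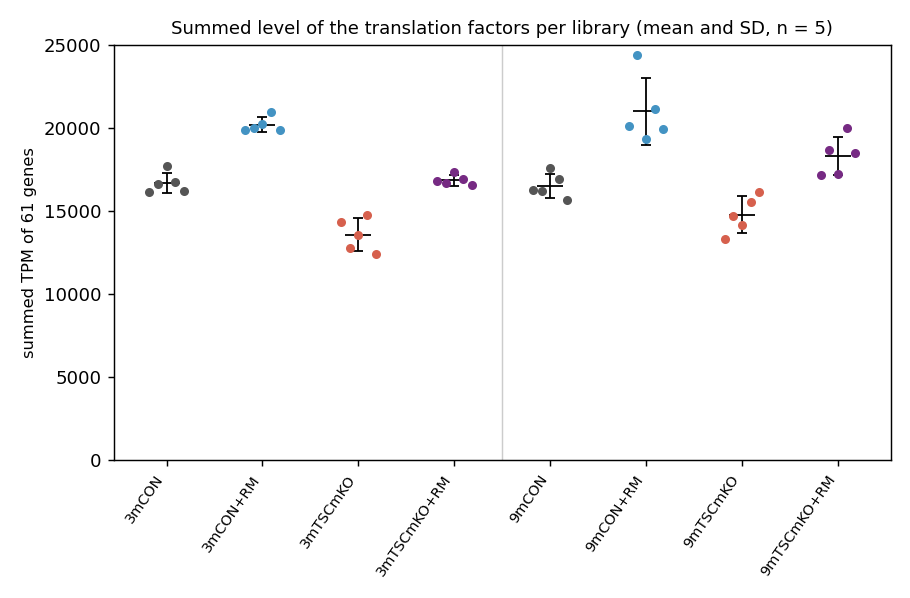
Summed TPM of the 61 translation factors (vertical axis, from 0) in each library (points) of the 8 groups, with the mean and SD (bars, n = 5). Vehicle TSCmKO groups have the lowest mean at each age, their libraries at 12391 to 14780 TPM at 3 months, below all 3mCON libraries, and at 13306 to 16148 at 9 months, where the highest exceeds the lowest 9mCON library at 15644, and the CON+RM groups have the highest means at each age.

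Eef2 (ENSMUSG00000034994, chr10:81176631-81182498 on the plus strand of GRCm38), the translocase that moves the ribosome along the mRNA, fell in the knockout and rose with rapamycin in all 4 comparisons. At 9 months the 5 libraries held 1168, 1395, 1270, 1420 and 1536 CPM in 9mCON and 572, 930, 702, 794 and 860 CPM in 9mTSCmKO. With rapamycin they held 3504, 3300, 2742, 2946 and 2639 CPM in 9mCON+RM and 2263, 2092, 1965, 1888 and 1805 CPM in 9mTSCmKO+RM. The 4 groups did not overlap: with or without rapamycin every knockout library lay below every control given the same, and every treated library lay above every vehicle library of either genotype. The log2 fold change for genotype was -0.82 ± 0.11 (SE, adjusted p = 1.8e-07) at 9 months and -0.77 ± 0.11 (1.1e-06) at 3 months. Rapamycin changed Eef2 by 1.38 ± 0.11 in 9mTSCmKO, a 2.60-fold rise (adjusted p = 1.3e-11), and by 1.25 ± 0.11 in 3mTSCmKO. In control mice the change was 1.16 ± 0.11 at 9 months (5.1e-09) and 0.92 ± 0.11 at 3 months (2.4e-06). Treated knockout muscle stayed above untreated control muscle, by 0.56 ± 0.11 at 9 months and 0.47 ± 0.11 at 3 months. The rapamycin effect differed between genotypes by 0.22 ± 0.15 at 9 months, which did not pass the test (adjusted p = 0.45).

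Eef2k, the kinase that phosphorylates and inactivates eEF2, did not pass the test in any of the 8 planned pairwise comparisons. Its changes with rapamycin were -0.32 ± 0.13 in 9mTSCmKO (adjusted p = 0.058) and 0.07 ± 0.13 in 9mCON (0.80). Against untreated 9mCON it was lower in 9mTSCmKO+RM, at -0.61 ± 0.13 (adjusted p = 0.00052). Among the methyltransferases of elongation factors, Eef2kmt, which modifies eEF2, rose with rapamycin in 3mTSCmKO by 0.64, and Eef1akmt1, which modifies eEF1A, fell there by 0.45. The Eef1akmt1 call was lost on leaving out any of 4 of the 10 libraries, with values of -0.44 to -0.39.

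Of the eEF1A genes, Eef1a1, the widespread form, was called with rapamycin at 3 months and Eef1a2 mainly at 9 months. Eef1a1 held 489, 476, 530, 474 and 421 CPM in 3mCON and 732, 637, 696, 839 and 769 CPM in 3mCON+RM. At 9 months it held 478, 415, 427, 385 and 449 CPM in 9mCON and 512, 426, 539, 448 and 321 CPM in 9mCON+RM. The 3-month groups did not overlap and the 9-month groups did. Its log2 fold change with rapamycin was 0.62 ± 0.13 in 3mCON (adjusted p = 0.012) and 0.59 ± 0.13 in 3mTSCmKO (0.00081), but 0.06 ± 0.13 in 9mCON and -0.00 ± 0.13 in 9mTSCmKO. The 3mCON call was lost without 3mCON replicate 5 (0.58, adjusted p = 0.053) and without 3mCON+RM replicate 4 (0.57, 0.063). The difference between ages was itself tested and did not pass the threshold: -0.56 in CON and -0.59 ± 0.18 in TSCmKO, with adjusted p = 0.076 in the latter. Among the 61 genes the rapamycin by age test called 0 in CON and 1 in TSCmKO, Eif4enif1, against 0.938% and 1.91% of all genes.

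Eef1a2, the form of adult muscle and neurons, rose with rapamycin by 0.50 ± 0.12 in 9mTSCmKO, 0.49 ± 0.12 in 9mCON and 0.33 ± 0.12 in 3mTSCmKO. In 3mCON the change was 0.26 ± 0.12 and was not called (adjusted p = 0.47). The 3mTSCmKO call was lost on leaving out any of 5 of the 10 libraries (0.27 to 0.33). Eef1a1 made up 53.5 ± 2.81% (SD, n = 5) of the summed TPM of both genes in 3mCON+RM and 47.4 ± 1.88% in 3mCON, a difference of 6.12 percentage points (two-sided exact permutation test, p = 0.00794, adjusted p = 0.0231 over 32 tests of 4 gene pairs). In 9mCON+RM the share was 35.0 ± 4.77% against 42.2 ± 4.40% in 9mCON, a difference of -7.22 points that did not pass after adjustment (exact permutation p = 0.0397, adjusted p = 0.0705).

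Of the subunits that recharge eEF1A, Eef1d rose with rapamycin in 9mCON by 0.47 and in 3mTSCmKO by 0.38, and was lower in 3mTSCmKO than in 3mCON at -0.42, a call lost on leaving out any of 4 of the 10 libraries (-0.40 to -0.38). Eef1b2 and Eef1g passed the test in no rapamycin or genotype comparison. Tpt1, which encodes the translationally controlled tumor protein that binds eEF1A, fell in the knockout and was not called with rapamycin. It held 1691, 1684, 1854, 1961 and 1583 CPM in 3mCON and 1075, 1032, 1210, 1542 and 1098 CPM in 3mTSCmKO, groups that did not overlap. The log2 fold change was -0.56 ± 0.15 at 3 months (adjusted p = 0.0051) and -0.45 ± 0.15 at 9 months (0.014). The 9-month call was lost without 9mCON replicate 2 (-0.34, adjusted p = 0.065) and without 9mTSCmKO replicate 2 (-0.37, 0.0504). With rapamycin Tpt1 changed by -0.13 ± 0.15 in 9mTSCmKO and -0.11 ± 0.15 in 3mTSCmKO, neither called, and treated knockout muscle stayed below untreated control by 0.58 at 9 months (log2 fold change -0.58) and 0.67 at 3 months (-0.67).

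**Figure D2:**
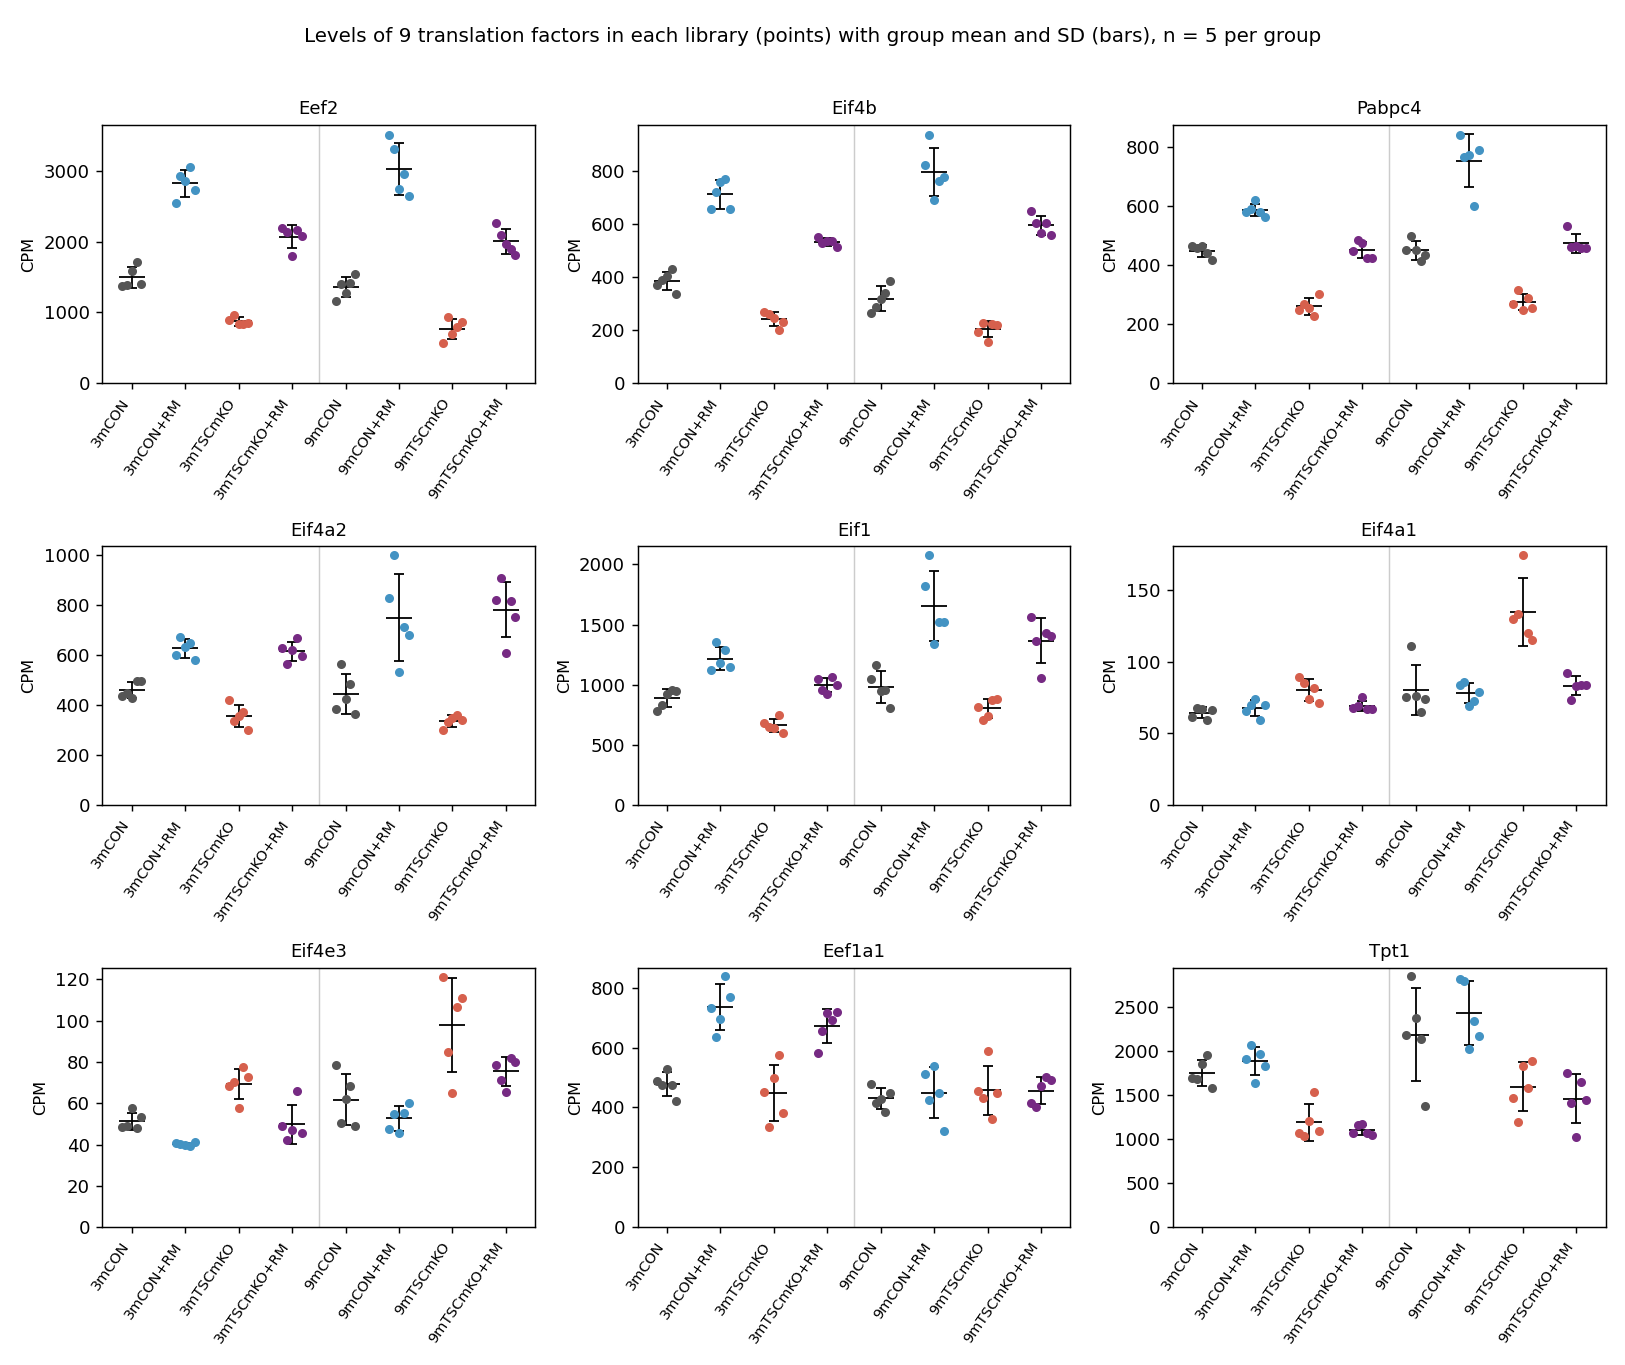
CPM (vertical axes, from 0) of 9 members in each library (points, horizontal axis by group) with the mean and SD (bars, n = 5). Eef2, Eif4b and Pabpc4 are lower in TSCmKO than in CON and higher with RM in both genotypes, Eif4a1 is highest in 9mTSCmKO, Eef1a1 is higher with RM at 3 months, and Tpt1 is lower in 3mTSCmKO, with or without RM, than in 3mCON.

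Among the eIF4F genes, Eif4b (ENSMUSG00000058655, chr15:102073773-102097173, plus strand), which stimulates the helicase eIF4A, rose most with rapamycin in each of the 4 comparisons. Its libraries held 264, 288, 317, 339 and 384 CPM in 9mCON and 193, 227, 155, 224 and 221 CPM in 9mTSCmKO. With rapamycin they held 821, 934, 689, 761 and 774 CPM in 9mCON+RM and 647, 603, 565, 601 and 559 CPM in 9mTSCmKO+RM. No group overlapped another. The rise with rapamycin was 2.91-fold in 9mTSCmKO (log2 fold change 1.54 ± 0.11, adjusted p = 6.1e-13), 2.50-fold in 9mCON, 2.21-fold in 3mTSCmKO and 1.85-fold in 3mCON. The genotype effect was -0.64 ± 0.11 at 9 months and -0.67 ± 0.11 at 3 months. For Eif4b too, treated knockout muscle exceeded untreated control, by 0.90 ± 0.11 at 9 months and 0.47 ± 0.11 at 3 months. Eif4h, the related cofactor of eIF4A, was called in none of the 8 planned pairwise comparisons.

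The eIF4A paralogs moved in opposite directions in the knockout. Eif4a2, the more abundant helicase here, held 384, 565, 425, 484 and 366 CPM in 9mCON, 301, 331, 350, 362 and 341 CPM in 9mTSCmKO, and 818, 907, 609, 815 and 753 CPM in 9mTSCmKO+RM. Eif4a1 held 75.5, 111, 75.9, 64.8 and 73.9 CPM in 9mCON, 130, 133, 174, 120 and 115 CPM in 9mTSCmKO, and 91.8, 73.2, 82.7, 84.0 and 83.8 CPM in 9mTSCmKO+RM. Every 9mTSCmKO library thus lay below all 9mCON libraries for Eif4a2 and above all of them for Eif4a1. Eif4a1 rose in the knockout by 0.75 ± 0.11 at 9 months (adjusted p = 9.3e-07) and by 0.32 ± 0.11 at 3 months (0.035), the latter lost on leaving out any of 5 of the 10 libraries (0.28 to 0.30). It fell with rapamycin in 9mTSCmKO by 0.69 ± 0.11 on the log2 scale (5.8e-06) and changed by -0.04 ± 0.11 in 9mCON. Eif4a1 was the single member for which the rapamycin effect differed between genotypes at 9 months, by -0.66 ± 0.16 (adjusted p = 0.0094), a call lost when only the groups compared were fitted (-0.65, adjusted p = 0.090). That test called 1 of 61 members against 4.87% of all genes, and 8 members had an unadjusted p under 0.05. At 3 months it called 0 members against 3.45% of all genes, with 9 at an unadjusted p under 0.05.

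Eif4a2 changed the other way. It fell in the knockout by 0.40 ± 0.13 at 9 months (adjusted p = 0.011) and by 0.37 ± 0.13 at 3 months (0.030). The 9-month call was lost without 9mCON replicate 2 (-0.30, adjusted p = 0.056), and the 3-month call on leaving out any of 5 of the 10 libraries (-0.37 to -0.31). With rapamycin it rose 2.32-fold in 9mTSCmKO, 1.73-fold in 3mTSCmKO and 1.69-fold in 9mCON. As a share of the summed TPM of both genes, Eif4a1 made up 15.0 ± 1.87% in 9mCON and 28.1 ± 2.61% in 9mTSCmKO, and with rapamycin 9.10 ± 1.18% and 9.50 ± 1.32% (SD, n = 5). At 3 months the shares were 11.9 ± 1.08% and 17.8 ± 0.866% without and 9.52 ± 0.983% and 9.87 ± 0.872% with rapamycin. The genotype and rapamycin differences passed at both ages (two-sided exact permutation tests, p = 0.00794, the smallest that 5 against 5 libraries can give, or 0.0159 for 3mCON+RM against 3mCON, adjusted p = 0.0231 or 0.0339). The age difference passed in TSCmKO (10.4 points, exact permutation p = 0.00794) and not in CON after adjustment (3.10 points, adjusted p = 0.0635). Eif4a3, a helicase of the exon junction complex that shares 29.3% of its 31-base words with Gm8994, passed in no genotype or rapamycin comparison.

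**Figure D3:**
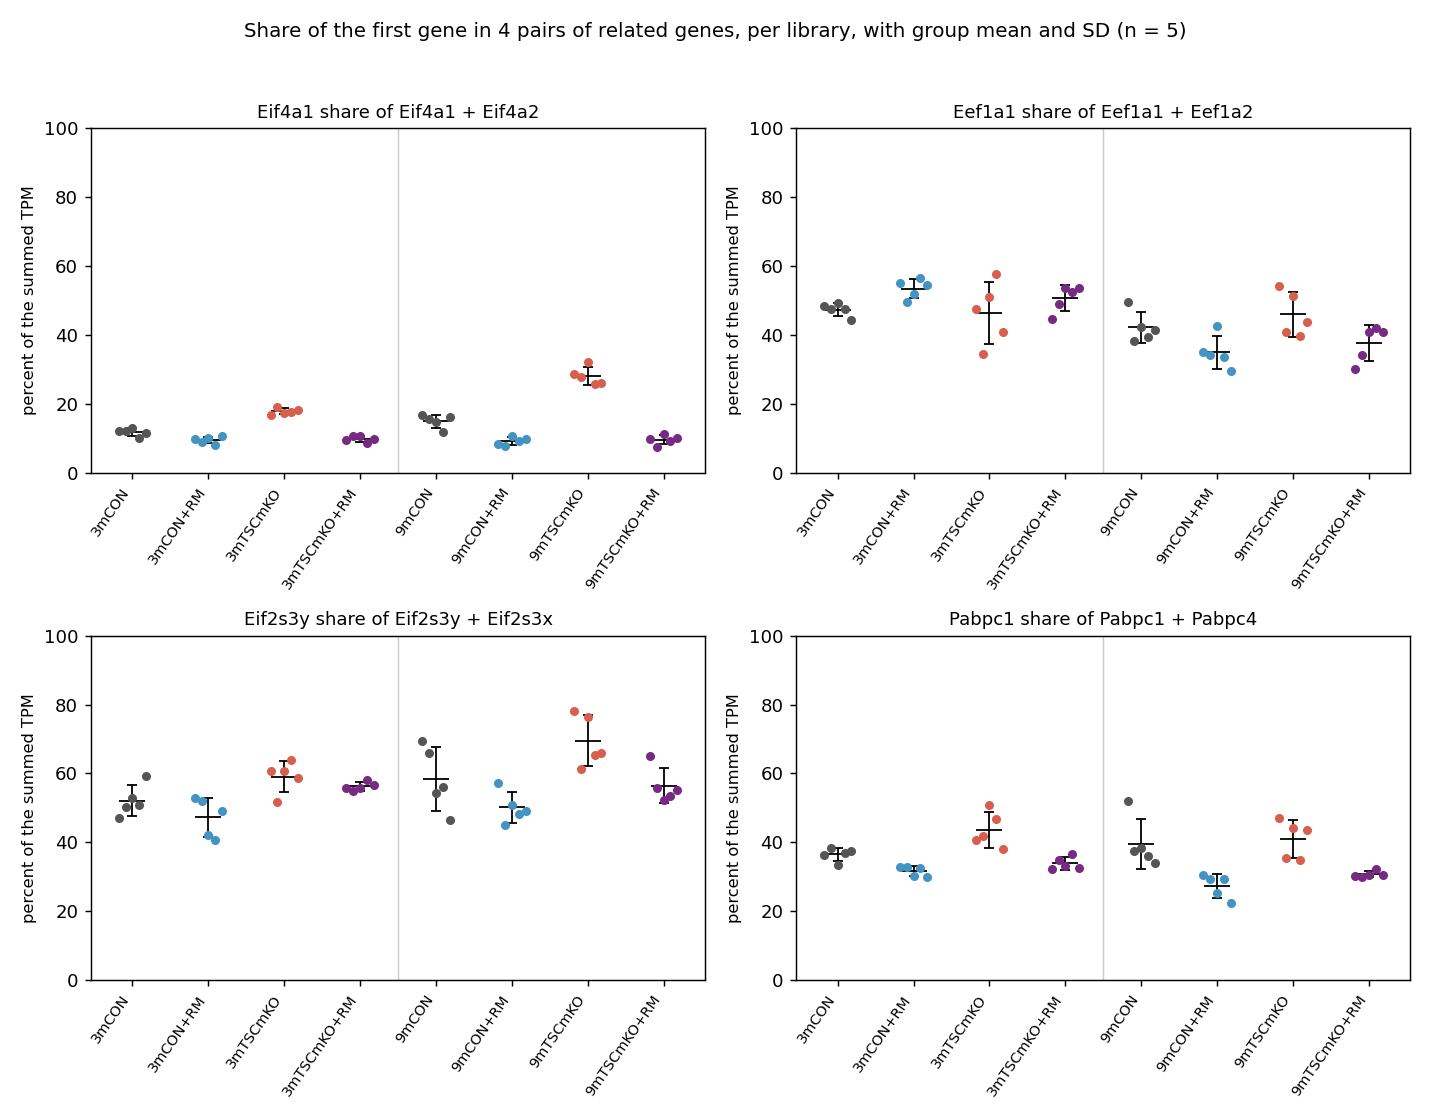
Share of the first gene in the summed TPM of 4 pairs of related genes (percent, vertical axes), per library (points) with the mean and SD (bars, n = 5). The Eif4a1 share is highest in 9mTSCmKO, at 25.9 to 32.2%, and near 10% in all RM groups, and the Pabpc1 share is lower with RM in every genotype and age.

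Of the cap-binding proteins, Eif4e was called in none of the 8 planned pairwise comparisons, with a genotype change of -0.20 ± 0.13 at 9 months and a rapamycin change of 0.12 ± 0.13 in 9mTSCmKO. Eif4e3, a less common relative, rose in the knockout by 0.66 ± 0.13 at 9 months (adjusted p = 0.00012) and 0.43 ± 0.13 at 3 months (0.016). It fell with rapamycin in 9mTSCmKO by 0.38 ± 0.13 (0.027) and in 3mTSCmKO by 0.48 ± 0.13 (0.0069), on the log2 scale. The 9-month fall was lost on leaving out any of 4 of the 10 libraries (-0.35 to -0.29), and the 3-month genotype call without 3mTSCmKO replicate 4 (0.38, adjusted p = 0.054). Eif4e3 shares 13.9% of its 31-base words with other genes, most of them with Gm20696, so its reads may be split. Eif4e2, a cap-binding repressor, fell with rapamycin in 9mTSCmKO by 0.25 and in 3mTSCmKO by 0.30 and was at 0.16 and -0.02 in 9mCON and 3mCON, not called.

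The scaffolds showed fewer calls. Eif4g1 rose with rapamycin in 9mTSCmKO by 0.51 ± 0.15 (adjusted p = 0.0088) and was lower in 9mTSCmKO than in 3mTSCmKO by 0.58 (log2 fold change -0.58). Eif4g2, a relative that works without eIF4E, was lower in 9mTSCmKO than in 9mCON at -0.44. Eif4g3 fell with rapamycin in 3mTSCmKO, at -0.34, a call lost on leaving out any of 9 of the 10 libraries (-0.35 to -0.25). Eif4enif1, the eIF4E transporter, rose in 3mTSCmKO against 3mCON by 0.23, a call lost on leaving out any of 8 of the 10 libraries (0.19 to 0.24). It fell with rapamycin in 3mTSCmKO by 0.39 ± 0.08 and changed by 0.06 ± 0.08 in 9mTSCmKO. The difference between those effects was 0.45 ± 0.12 (adjusted p = 0.031) and lost its call on leaving out any of 8 of the 20 libraries (0.39 to 0.45) and when only the groups compared were fitted (adjusted p = 0.082).

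Of the poly(A)-binding proteins, Pabpc4 fell in the knockout at both ages and rose with rapamycin in all 4 comparisons, and Pabpc1 fell in the knockout at 9 months. Pabpc4 held 451, 500, 450, 412 and 436 CPM in 9mCON, 268, 316, 247, 289 and 254 CPM in 9mTSCmKO, and 531, 461, 464, 457 and 459 CPM in 9mTSCmKO+RM. Treated knockout muscle overlapped untreated control muscle, and both lay above all vehicle knockout libraries. The genotype change was -0.71 ± 0.09 at 9 months and -0.79 ± 0.09 at 3 months, and the rapamycin change was 0.79 ± 0.09 in TSCmKO at each age. In 9mCON it was 0.74 ± 0.09 and in 3mCON 0.39 ± 0.09 (adjusted p = 0.029), the latter lost on leaving out any of 9 of the 10 libraries (0.36 to 0.40). Treated knockout against untreated control gave 0.08 ± 0.09 at 9 months and 0.01 ± 0.09 at 3 months. Pabpc1, the general poly(A)-binding protein of the cytoplasm, was -0.65 ± 0.15 in 9mTSCmKO against 9mCON (adjusted p = 0.0010) and -0.39 ± 0.15 at 3 months (0.072). Without 9mCON replicate 1 the 9-month value was -0.42 (adjusted p = 0.014). Its rapamycin changes of 0.11 ± 0.15 in 9mTSCmKO and -0.08 ± 0.15 in 9mCON were not called. Its share of the summed TPM of both genes fell with rapamycin in each genotype and age, by 10.4 points in 9mTSCmKO, 9.67 in 3mTSCmKO, 12.1 in 9mCON and 4.78 in 3mCON, with no overlap between groups (exact permutation p = 0.00794, adjusted p = 0.0231).

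Most eIF3 subunits rose with rapamycin in 3 of the 4 comparisons. Of 13 measured, 10 rose in 9mCON (5.03% of all genes did), 9 in 9mTSCmKO (15.8%), 8 in 3mTSCmKO (10.6%) and 1 in 3mCON (0.362%), and 0 fell in any of the 4. Their median log2 fold changes were 0.49, 0.39, 0.40 and 0.29 in that order. Eif3e, the subunit called in all 4, held 135, 173, 142, 148 and 125 CPM in 9mCON and 259, 281, 216, 218 and 204 CPM in 9mCON+RM, which did not overlap. It rose 1.63-fold in 9mCON, 1.53-fold in 9mTSCmKO, 1.34-fold in 3mTSCmKO and 1.40-fold in 3mCON, the last call lost on leaving out any of 6 of the 10 libraries (log2 fold change 0.46 to 0.49). Eif3g, which binds eIF4B, rose by 0.73 ± 0.12 in 9mTSCmKO and 0.57 ± 0.12 in 9mCON. Eif3i, Eif3k and Eif3m passed in none of the 8 planned pairwise comparisons.

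Between genotypes at 9 months 3 of 13 eIF3 genes were higher and 1 lower, where 19.1% of all genes were higher and 18.9% lower, and nothing particular to eIF3 is read from these counts. Eif3b, a core scaffold subunit, held 67.3, 69.8, 83.9, 86.2 and 88.9 CPM in 9mCON, 97.3, 133, 117, 119 and 121 CPM in 9mTSCmKO, and 148, 171, 154, 174 and 147 CPM in 9mTSCmKO+RM. The 3 groups stepped upward without overlap. The genotype change was 0.57 ± 0.10 at 9 months (adjusted p = 1.4e-05) and 0.23 ± 0.10 at 3 months (0.095), and treated knockout muscle exceeded untreated control at 9 months (adjusted p = 4.1e-10) and, 1.58-fold, at 3 months (5.1e-06). Eif3c rose in 9mTSCmKO against 9mCON by 0.46 and Eif3d by 0.49, the latter lost without 9mTSCmKO replicate 3 (0.29, adjusted p = 0.064), while Eif3h was lower at -0.25. At 3 months 0 of 13 subunits were called between genotypes, where 11.4% of all genes were higher and 8.32% lower, and nothing particular to eIF3 is read from this count either. The difference in genotype effect between ages was called for 0 of the 61 genes, against 4.94% of all genes, with 9 at an unadjusted p under 0.05.

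**Figure D4:**
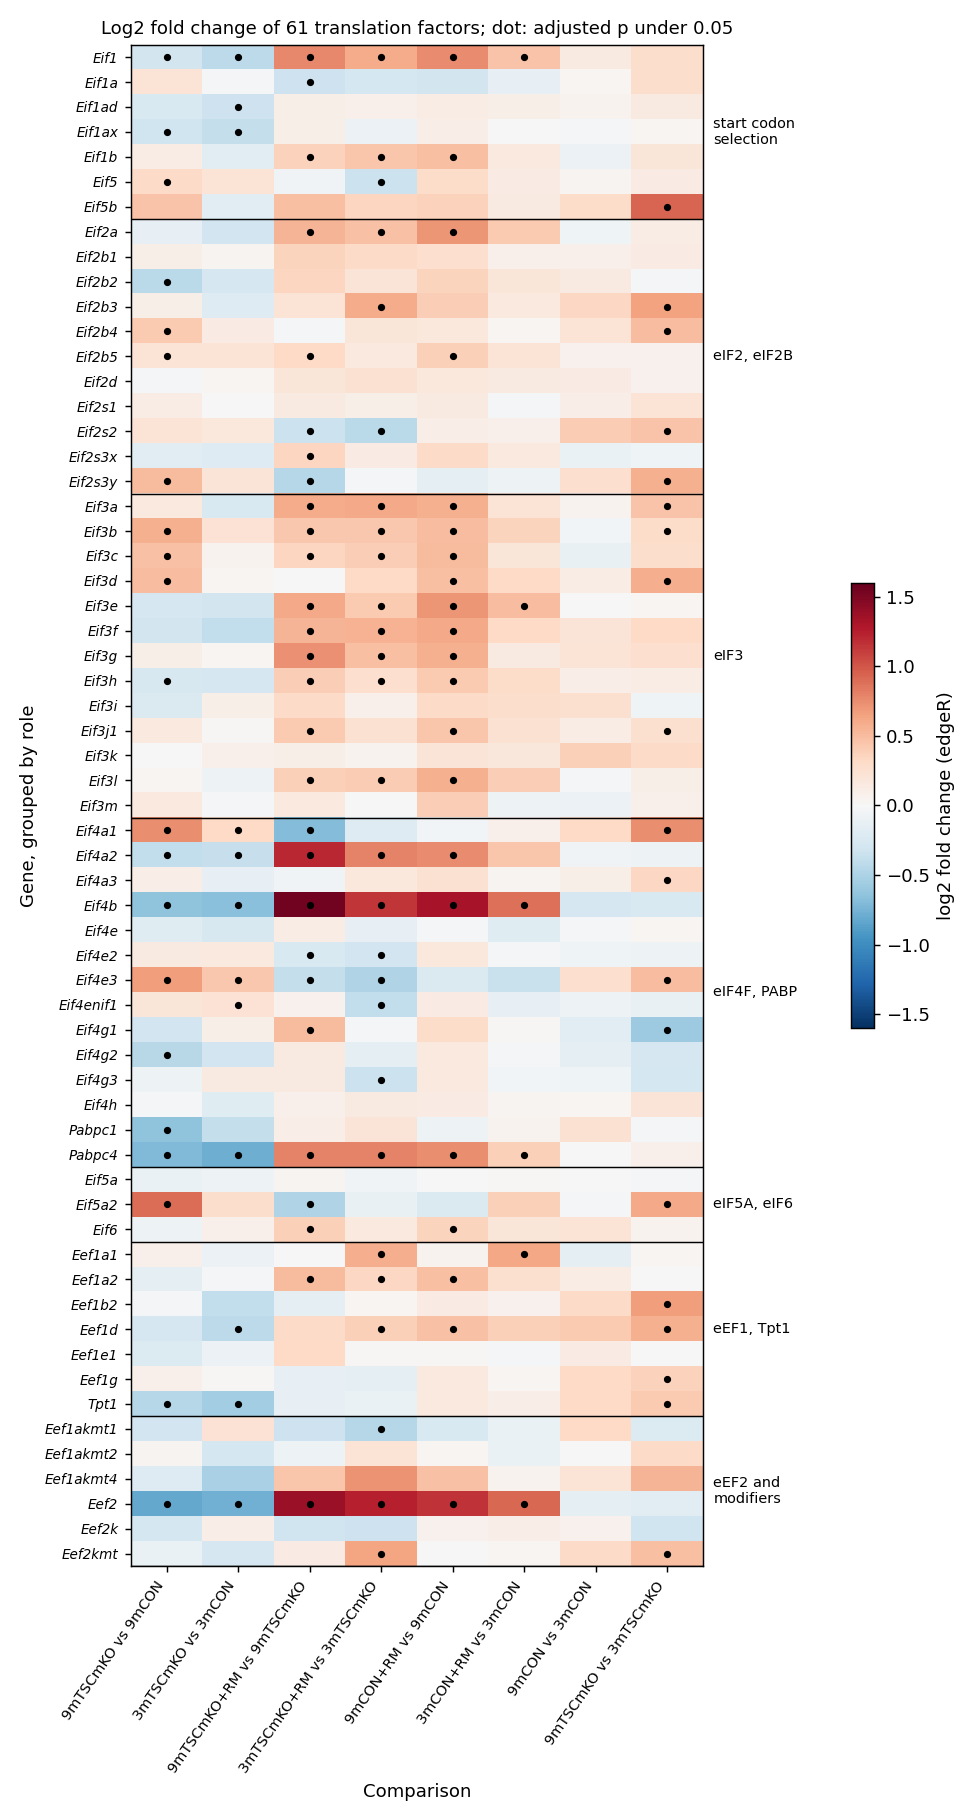
Log2 fold changes (color, red higher and blue lower) of the 61 genes (rows, grouped by role) in the 8 planned pairwise comparisons (columns), with a dot where adjusted p is under 0.05. The eIF3 block carries dots for rises in 10, 9 and 8 of 13 genes in the 9mCON, 9mTSCmKO and 3mTSCmKO rapamycin columns, and the 9mCON against 3mCON column carries none.

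Among the eIF2 subunits, which deliver the initiator tRNA, Eif2s1, the alpha subunit that stress kinases phosphorylate, was called in none of the 8 planned pairwise comparisons, with genotype changes of 0.12 ± 0.10 at 9 months and -0.00 ± 0.10 at 3 months. Eif2s2, the beta subunit, fell with rapamycin in 9mTSCmKO by 0.34 ± 0.13 and in 3mTSCmKO by 0.44 ± 0.13 on the log2 scale, the former lost on leaving out any of 4 of the 10 libraries (-0.34 to -0.28). It changed by 0.10 and 0.08 in 9mCON and 3mCON, not called. Of the gamma subunits, the Y-linked Eif2s3y rose in 9mTSCmKO against 9mCON by 0.50 ± 0.14 (adjusted p = 0.0044) and fell with rapamycin in 9mTSCmKO by 0.46 ± 0.14 (0.011). Its X-linked partner Eif2s3x rose in the same rapamycin comparison by 0.34. The Eif2s3y share of the summed TPM of both was 69.4 ± 7.40% in 9mTSCmKO and 56.4 ± 5.09% in 9mTSCmKO+RM (exact permutation p = 0.0159, adjusted p = 0.0339).

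The eIF2B subunits divided. Eif2b4 rose in 9mTSCmKO by 0.42 and Eif2b5, the catalytic subunit, by 0.22, while Eif2b2 was lower at -0.43. Eif2b5 also rose with rapamycin in 9mCON by 0.38 and in 9mTSCmKO by 0.32, and Eif2b3 in 3mTSCmKO by 0.60. Eif2b1 was called in none of the 8 planned pairwise comparisons. Eif2a, an alternative initiator tRNA factor that is not a subunit of eIF2, rose with rapamycin in 9mCON by 0.70, in 9mTSCmKO by 0.54 and in 3mTSCmKO by 0.47. At 3 months 0 of the 11 genes of this group were called between genotypes, where 11.4% of all genes were higher and 8.32% lower. With so few genes nothing particular to this group is read from that count.

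Among the factors of start codon choice, Eif1, which keeps the scanning ribosome stringent, fell in the knockout and rose with rapamycin. It held 1046, 1162, 949, 956 and 804 CPM in 9mCON and 1817, 2075, 1337, 1524 and 1521 CPM in 9mCON+RM. The groups did not overlap, and neither did 9mTSCmKO at 815, 705, 742, 870 and 883 CPM and 9mTSCmKO+RM at 1564, 1361, 1059, 1434 and 1402 CPM. Eif1 rose with rapamycin by 0.76 ± 0.11 in 9mTSCmKO, 0.75 ± 0.11 in 9mCON, 0.59 ± 0.11 in 3mTSCmKO and 0.45 ± 0.11 in 3mCON (adjusted p = 0.043). The 3mCON call was lost on leaving out any 1 of the 10 libraries (0.41 to 0.48). It fell in the knockout by 0.29 ± 0.11 at 9 months and 0.42 ± 0.11 at 3 months on the log2 scale, and 16.2% of its 31-base words are shared with Emd. Eif1b rose with rapamycin in 9mCON by 0.48, 3mTSCmKO by 0.45 and 9mTSCmKO by 0.37. Eif1ax, an X-linked gene of eIF1A, was lower in the knockout at both ages, at -0.32 and -0.38. Eif1ad was lower in 3mTSCmKO than in 3mCON at -0.33. Eif1a fell with rapamycin in 9mTSCmKO by 0.33, a call lost on leaving out any of 6 of the 10 libraries (-0.33 to -0.24). Eif5, the GTPase activator of eIF2, rose in 9mTSCmKO against 9mCON by 0.30 and fell with rapamycin in 3mTSCmKO by 0.34, the latter lost without 3mTSCmKO replicate 1 (-0.28), 3mTSCmKO+RM replicate 2 (-0.32) or 3mTSCmKO+RM replicate 5 (-0.31).

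Eif5a, whose product aids the ribosome through difficult stretches and carries the rare amino acid hypusine, was called in none of the 8 planned pairwise comparisons, with changes of -0.11 ± 0.10 for genotype at 9 months and 0.05 ± 0.10 for rapamycin in 9mTSCmKO. Its paralog Eif5a2 was scarce, at 3.84, 1.66, 1.95, 2.51 and 2.63 CPM in 9mCON and 4.58, 6.12, 3.97, 4.96 and 4.11 CPM in 9mTSCmKO. Those groups did not overlap, and the change was 0.90 ± 0.19, a 1.86-fold rise (adjusted p = 0.00029). The fall with rapamycin in 9mTSCmKO, at -0.48 ± 0.19 (0.046), was lost on leaving out any of 7 of the 10 libraries (-0.52 to -0.38). Eif6, which keeps ribosomal subunits apart, rose with rapamycin in 9mTSCmKO by 0.39 and in 9mCON by 0.36, the latter lost on leaving out any of 7 of the 10 libraries (0.28 to 0.37) and the former without 9mTSCmKO replicate 1 (0.28, adjusted p = 0.052).

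**Figure D5:**
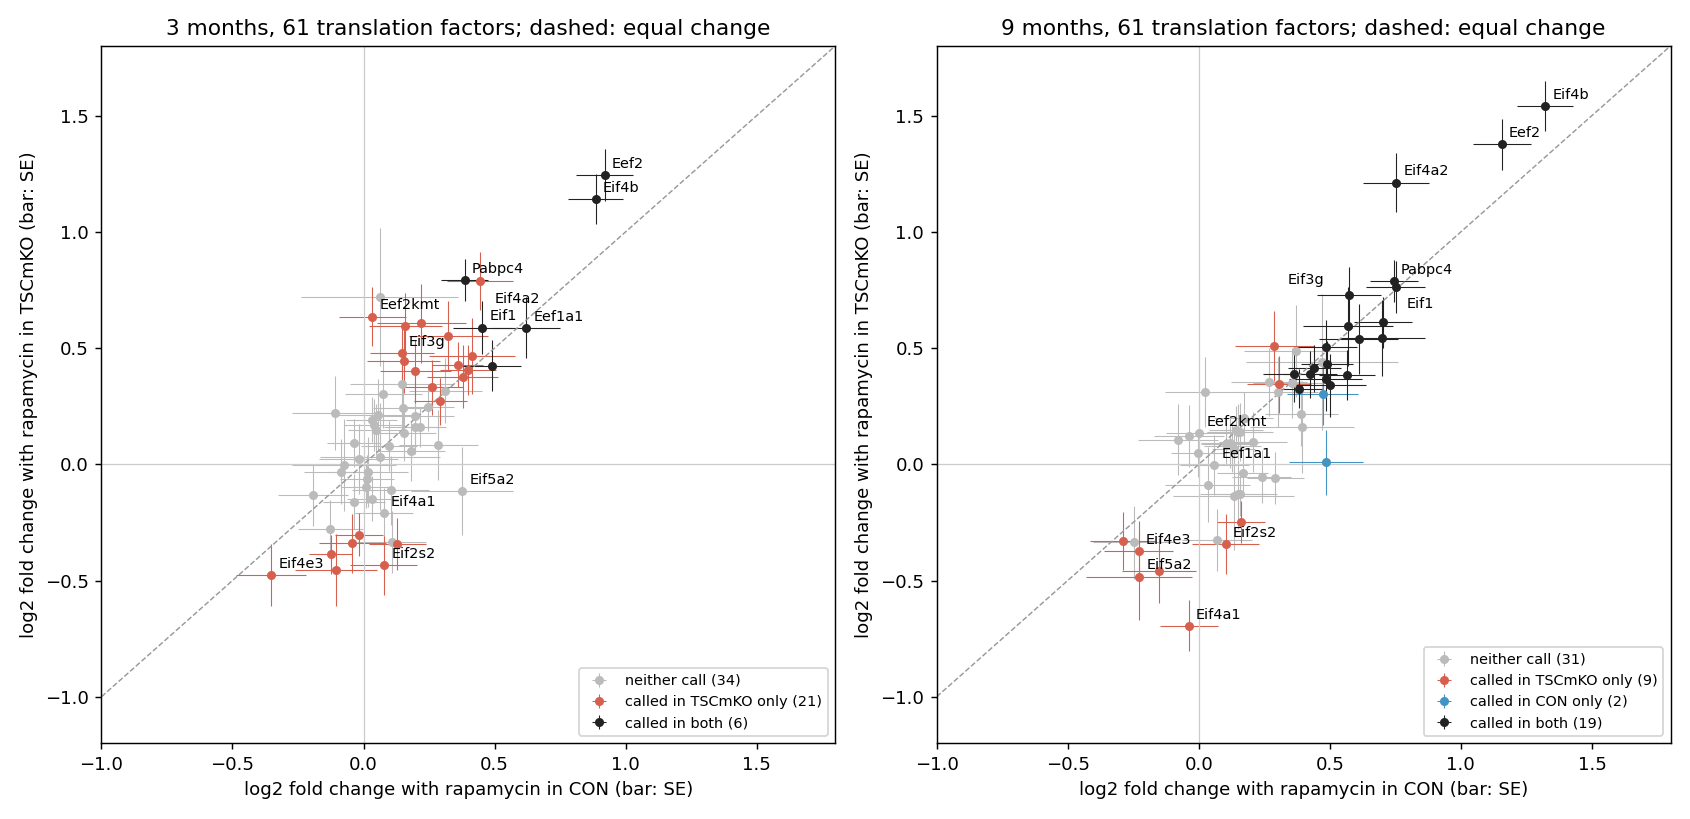
Log2 fold change with rapamycin in CON (horizontal axis) and TSCmKO (vertical axis) for the 61 genes at 3 months (left) and 9 months (right), with SE bars, colored by the groups in which they were called. At 9 months 19 genes were called in both genotypes, all higher, with Eif4b and Eef2 farthest from 0 and Eif4a1 lower in TSCmKO alone, and at 3 months 6 were called in both.

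In control muscle no member was called with age. In 9mCON against 3mCON, 0 of 61 genes passed in either direction, against 0.679% of all genes higher and 0.34% lower, with 11 at an unadjusted p under 0.05, and DESeq2 called 2. On leaving out 1 library the number called was 0 to 6 (6 without 9mCON replicate 5). In 9mTSCmKO against 3mTSCmKO, 18 rose and 1 fell, against 19.1% and 18.3% of all genes. Markers of other cells moved with it: 4 of 5 erythroid (Alas2 at -2.23), 3 of 5 fibroblast (Col3a1 at -1.71), 3 of 4 tendon, 3 of 4 endothelial and 3 of 3 adipocyte markers were lower. Also lower were Adgre1 of the macrophage list and the lymphocyte and neutrophil markers S100a9 (-3.36) and Cd79a (-1.53). Cd68 of the macrophage list (1.44) and Scx of the tendon list (1.53) were higher. The part of all these markers in the result was not tested. The rises were led by Eif5b, the GTPase of subunit joining, at 0.93 ± 0.20, then Eif4a1 at 0.75 ± 0.11, Eef1b2 at 0.67, Eif2b3 at 0.64, Eif5a2 at 0.60 and Eif3d at 0.58 (0.38 without 9mTSCmKO replicate 3, adjusted p = 0.015). With the labelled insert size as a covariate, in 39 libraries since 9mTSCmKO+RM replicate 5 has no labelled size, the number called fell from 19 to 3 while that of all genes fell from 19.1% higher and 18.3% lower to 6.49% and 6.08%, with Eif4a1 among them (0.62, adjusted p = 0.0089) and Eif5b outside (0.78, 0.060). Leaving out 9mTSCmKO replicate 1 took the Eef1b2 call (0.51, adjusted p = 0.089), as did 9mTSCmKO replicate 3 (0.52, 0.090) and 3mTSCmKO replicate 2 (0.60, 0.058).

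Treated knockout muscle was then set against untreated control muscle, a comparison added after the data were seen. In 9mTSCmKO+RM against 9mCON, 22 genes were higher and 5 lower, against 15.7% and 16.2% of all genes. In that comparison 4 of 5 fibroblast markers (Col1a1 at -2.16, Col3a1 at -1.65), 3 of 5 macrophage markers (Adgre1 at -1.89, Lyz2 at -0.89) and 3 of 4 tendon markers were lower, and their part in the result was not tested. In 3mTSCmKO+RM against 3mCON, 12 were higher and 4 lower, against 8.98% and 7.71%, with 2 of 5 macrophage markers and 1 of 4 tendon markers higher. The largest differences at 9 months were in Eif3b, given above, and Eif5b at 0.95 ± 0.20, Eif4b at 0.90 ± 0.11, Eif3g at 0.82 ± 0.12, Eif4a2 at 0.81 ± 0.13 and Eif3c at 0.80. Eif4a1 was at 0.05 ± 0.11 and Pabpc4 at 0.08 ± 0.09, neither called. The lower genes included Eef1akmt1 at -0.64, Eef2k at -0.61 and Tpt1 at -0.58 ± 0.15.

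A textbook list of 11 members long classed as TOP mRNAs (Eef1a1, Eef1b2, Eef1d, Eef1g, Eef2, Eif3e, Eif3f, Eif3h, Eif4b, Pabpc1 and Tpt1) was drawn up after the values were seen and is given as a description. In the knockout 5 of 11 were lower at 9 months and 4 at 3 months and 0 were higher, with medians of -0.27 and -0.39, beside 0.04 and -0.01 for the other 50. With rapamycin 6 rose in 9mCON, 5 in 9mTSCmKO, 7 in 3mTSCmKO and 4 in 3mCON, and 0 fell. Of the other 50, 15, 16, 13 and 2 rose in that order, and 7 fell in TSCmKO at each age. Medians were 0.42, 0.30, 0.38 and 0.32 for the list, beside 0.25, 0.16, 0.15 and 0.10 for the other 50. The cytosolic ribosomal proteins, the largest class of TOP mRNAs, are given beside the list: of 80, 5 rose with rapamycin in 9mCON (5.03% of all genes did), 0 in 9mTSCmKO (15.8%), 2 in 3mTSCmKO (10.6%) and 0 in 3mCON (0.362%), with medians of 0.22, 0.00, 0.13 and 0.22. In the knockout 5 of 80 were lower at 9 months (18.9% of all genes were) and 9 at 3 months (8.32%), with medians of -0.09 and -0.21, and 0 were higher. With age in TSCmKO, 38 of 80 rose and 0 fell, where 19.1% of all genes rose and 18.3% fell. With insert size as a covariate (39 libraries, a count added after the data were seen) 14 of 80 rose and 0 fell, where 6.49% of all genes rose and 6.08% fell.

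Neighbours of the pathway were read from lists in the same way, beside 19.1% of all genes higher and 18.9% lower in the knockout at 9 months and 11.4% and 8.32% at 3 months, and with so few genes a list nothing particular to a list is read from its count. Of the 4E-binding proteins, which hold eIF4E away from eIF4G, Eif4ebp1 rose in the knockout by 1.01 at 9 months and 0.60 at 3 months and was not called with rapamycin, while Eif4ebp2 was lower in 9mTSCmKO than in 9mCON at -0.57 and fell with rapamycin in 3mTSCmKO by 0.61. Of 6 eIF2 alpha kinases and phosphatase subunits, 3 rose in the knockout at each age and 0 fell: Ppp1r15a, the stress-induced phosphatase subunit, by 0.76 and 0.82, Eif2ak2, the RNA-activated kinase, by 0.69 and 0.76, and Eif2ak1, the heme-regulated kinase, by 0.31 and 0.49, at 9 and 3 months. Ppp1r15a fell with rapamycin in TSCmKO by 0.76 at 9 months and 0.81 at 3 months on the log2 scale and was not called in CON.

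Among 9 effectors of mTORC1 on translation, 2 rose and 2 were lower in 9mTSCmKO against 9mCON, and 2 rose and 0 were lower at 3 months, the 9-month shares being near those of all genes (19.1% and 18.9%). Mknk2, a kinase of eIF4E, rose by 1.47 and 1.11 at 9 and 3 months, and its changes with rapamycin of -0.01 and -0.04 in TSCmKO were not called. Larp1, which binds TOP mRNAs, rose at 3 months by 0.67 and was at 0.07 at 9 months, not called. Pdcd4, an inhibitor of eIF4A, rose in 9mTSCmKO by 0.44 and rose again with rapamycin there by 0.47. Of 8 termination and recycling genes, Eif2d among them, 2 rose in 9mTSCmKO (Denr by 0.46 and Pelo by 0.42), and of 5 regulators of poly(A)-binding protein, Paip2, an inhibitor, rose there by 0.31. Of 9 hypusine and diphthamide enzymes, which modify eIF5A and eEF2, 1 was lower in 9mTSCmKO (Dph6 at -0.55) and 0 at 3 months. Of 10 mitochondrial translation factors 0 were called in any of the 4 rapamycin comparisons, where from 0.362% (3mCON) to 15.8% (9mTSCmKO) of all genes rose and from 0.318% to 16.8% fell, and in 9mTSCmKO against 9mCON 3 rose and 1 was lower, with Mtif3, an initiation factor, at 0.58.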

How the data were processed

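Poly(A) RNA of whole EDL muscle was sequenced in 40 libraries of 8 groups of 5. Per the submitters' processing notes, the authors trimmed reads with cutadapt 1.9.1 and quantified them with kallisto 0.43.1 on the protein-coding transcripts of Ensembl for GRCm38. A read that fitted several transcripts was divided among them, so near-identical genes can exchange reads. The authors deposited estimated counts per gene, given as whole numbers, and TPM values. Both were used as deposited, counts for tests and TPM for levels between genes. The members and gene lists were chosen with earlier results of these data known.

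Genes with at least 1 CPM in 5 or more libraries were kept. TMM scaling, 8 group means and edgeR 4.0.16 quasi-likelihood tests (robust, R 4.3.3) gave log2 fold changes, SE and p-values, adjusted by Benjamini-Hochberg over 13543 genes, with a threshold of 0.05. The fit was tested on simulated data. Paralog shares were compared by two-sided exact permutation tests. Any member could be named, and full statistics were given for a fixed set of members and for up to 6 of the largest rises and falls in each comparison. The labels number the libraries but do not name the mouse, while the study gives 5 mice per group for its TSCmKO data set. The p-values measure the spread between these libraries. Total counts set the depth, from 8883870 to 35224669. Alternatives were other scalings and filters, DESeq2 1.42.0, only the groups of a comparison, insert size, a replicate block and leaving out each library. Comparisons of treated TSCmKO with vehicle CON, and of rapamycin effects between ages, were added after the data were seen. Shared 31-base words were counted between GENCODE M21 transcripts of genes in the table.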

Additional observations from a re-analysis of the deposited data

Results flagged for a closer look

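In 2 members an effect differed between groups by a test of the difference itself. For Eif4a1 the rapamycin effect was lower in 9mTSCmKO than in 9mCON by 0.66 on the log2 scale (interaction -0.66, edgeR adjusted p = 0.0094). For Eif4enif1 the rapamycin effect was higher in TSCmKO at 9 months than at 3 months, by 0.45 (edgeR adjusted p = 0.031). Each test called 1 of 61 members, against 4.87% and 1.91% of all genes. Neither call was kept when only the groups compared were fitted, and that of Eif4enif1 was also lost on leaving out single libraries.

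In 15 of 304 sets of 5 libraries examined for 38 named members, 1 library stood apart from the other 4 by Dixon's criterion, and over all members this held in 34 of 488 sets, where chance gives about 5%. In 9mCON, replicate 2 was high for Eif4a1 at 111 CPM, for Eif6 at 27.6 and for Eif2b3 at 32.7, and replicate 5 was high for Eif3c at 276. In 9mTSCmKO+RM, replicate 1 was high for Pabpc4 at 531 CPM, for Eif3d at 96.2 and for Eif3g at 129, and replicate 3 was high for Eif3c at 454. In 9mTSCmKO, replicate 3 was low for Eif4g3 at 206 CPM. In 3mTSCmKO, replicate 2 was high for Eif3d at 62.4 CPM and replicate 3 for Pabpc1 at 222. In 3mTSCmKO+RM, replicate 3 was low for Eef2 at 1789 CPM and replicate 4 high for Eif4e3 at 66.0. In 3mCON+RM, replicate 1 was low for Eef1a2 at 1172 CPM and replicate 3 high for Eif4g1 at 882.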

How the results depend on the processing

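Of 103 calls on named members, 60 held under every alternative run, 31 were lost on leaving out at least 1 library and 39 under at least 1 other alternative, and no call changed direction. DESeq2 lost 0 of the 103, median-of-ratios scaling 1, upper-quartile scaling 7, no filter on low counts 16, a filter over 10 libraries 1, insert size as a covariate 14 and a fit on only the groups compared 22. The causes were not tested.

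Numbers of members called moved by over 1.5 times as follows. On only the groups compared, 9mTSCmKO against 9mCON gave 8, 3mTSCmKO against 3mCON 21, rapamycin in 9mTSCmKO 14, in 9mCON 10 and in 3mCON 13, 3mTSCmKO+RM against 3mCON 27, the rapamycin by genotype interaction 0 at 9 months and 5 at 3 months, and the rapamycin by age interaction in TSCmKO 0. With insert size as a covariate (without 9mTSCmKO+RM replicate 5, whose size is not labelled), age in TSCmKO gave 3. With upper-quartile scaling the 3-month rapamycin by genotype interaction and the rapamycin by age interaction in TSCmKO gave 2 each. With no filter rapamycin in 3mCON gave 3 and the latter interaction 0. With the filter over 10 libraries the 9-month interaction gave 2. DESeq2 gave 2 for each of these 3 interactions and 2 for age in CON. On leaving out 1 library, rapamycin in 3mCON gave 2 to 5, age in CON 0 to 6 (6 without 9mCON replicate 5), the genotype by age interaction 0 to 1, the rapamycin by genotype interaction 1 to 2 at 9 months and 0 to 1 at 3 months, and the rapamycin by age interaction in TSCmKO 0 to 2.

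Same-numbered libraries did not deviate together (correlations of -0.459 to 0.561, median 0.00118, 8 of 40 libraries best matched by their own number), so the numbers were not taken as pairs. A fit with a replicate block gave 20 members for 9mTSCmKO against 9mCON among those called before and lost 1 of the 103 calls.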
